A study of Drosophila melanogaster with 78 samples.

Results

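Ndae1, ed and CG34166 are 3 Drosophila genes whose circular RNAs (circRNAs) were picked because the difference between dilp 2-3,5 mutant and wDah fat bodies changed with age. They account for 4 of the 1194 circRNAs counted in total RNA, and for 3 of the 206 counted in the polysome experiment. The members were chosen from the circular and linear reads of total RNA from fat body, so those values are given below as a description and without a test. Tests are given only for brain, thorax, gut and the polysome libraries.

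All flies were female. The dilp 2-3,5 mutants lack the insulin-like peptide genes dilp 2, dilp 3 and dilp 5, and the wDah flies are the outbred wildtype stock into which the mutations had been backcrossed. Both carry Wolbachia. Brain, thorax without gut, gut with Malpighian tubules but without crop, and fat body (the abdomen without gut and ovaries) were sequenced at days 10, 30 and 50 after ribosomal RNA depletion, which gave 72 libraries, 3 biological replicates for each of the groups. Polysome-enriched RNA was sequenced from fat bodies at day 10 in 6 further libraries, 3 per genotype. The day 10 samples had been generated independently of the later ones, so age and this separate preparation cannot be told apart between day 10 and days 30 or 50. The fat body sample is a carcass that also holds oenocytes, muscle and hemocytes, and in bulk RNA fewer cells of a type and less RNA per cell cannot be told apart.

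A circRNA forms when the splicing machinery joins the end of an exon back to the start of the same or an earlier exon, a step called backsplicing. The closed ring has no free ends and is slowly degraded. With age, circRNAs accumulate in neuronal tissue, and their stability is among several reasons that have been proposed for this. Reads that cross the backsplice junction were counted as circular reads, and reads of the host gene at the same positions, spliced in the usual order where the positions are exon ends, as linear reads. The fat body is the main metabolic store of the fly, comparable with liver and adipose tissue, and a target of insulin-like peptides. Ndae1 encodes a sodium-driven anion exchanger of the bicarbonate transporter family that moves bicarbonate into cells against chloride and so regulates their pH. The product of ed, Echinoid, is an immunoglobulin-domain adhesion protein of adherens junctions that restrains EGF receptor signaling and feeds into the Hippo pathway. CG34166 has no name beyond its gene number and no role is given for it here.

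The ends of the CG34166 circle lie apart from annotated exon ends, unlike those of the other members, so the bases at the junctions are shown. Coordinates are those of the deposited files on BDGP6, and the reference annotation and genome are of the same assembly. The Ndae1 exon circRNA (gene FBgn0259111, minus strand) covers chr2L:7234527-7234997, which is 1 coding exon of 471 bases present in all 10 annotated transcripts. A second circle, called here the 5-exon Ndae1 circRNA, covers chr2L:7227104-7231126 and 5 coding exons with 2243 exon bases, and none of the 10 transcripts holds both of its ends. The ed circRNA (gene FBgn0000547, plus strand) covers chr2L:4079504-4080022, with exons 4 and 5 of 261 and 197 bases, 458 bases once spliced. In each backsplice junction below, the last 30 bases of the circle are in lower case and its first 30 bases in capitals.
Ndae1 exon circRNA: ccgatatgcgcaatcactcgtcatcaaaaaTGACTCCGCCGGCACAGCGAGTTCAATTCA
Ndae1 5-exon circRNA: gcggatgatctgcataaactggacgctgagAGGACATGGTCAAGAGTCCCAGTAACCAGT
ed circRNA: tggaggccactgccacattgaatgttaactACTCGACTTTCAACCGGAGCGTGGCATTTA

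Both ends of these 3 circles coincide with annotated exon ends, as do those of 1072 of all circRNAs (89.8%). The genome reads AG just before each circle and GT just after it, the usual signals of an acceptor and a donor site, which 98.1% of all junctions carry. The capitals mark these 2 bases in the windows of 30 bases before and after each end of the Ndae1 exon, read on the strand of the gene.
Ndae1 exon, start: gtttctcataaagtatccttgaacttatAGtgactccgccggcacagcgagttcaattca
Ndae1 exon, end: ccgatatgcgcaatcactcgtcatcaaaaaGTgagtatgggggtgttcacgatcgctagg

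The CG34166 circRNA (gene FBgn0085195, plus strand) covers only 60 bases, chr2L:14743482-14743541, and neither end is an annotated exon end, although the genome reads AG before and GT after this circle as well. Both lie within exon 2 and inside its coding part, chr2L:14743382-14743615, so its linear reads are not reads spliced at known sites and its circular share is not the same measure as for the other members. Only 60 junctions (5.03%) have no annotated end, and 24 span 100 bases or less, of which 19 have no annotated end. The coding stretch is a run of imperfect repeats: shifted by 30 bases against itself it matched at 58.8% of positions, against a median of 26.0% over all shifts tried. The window below runs to the last base of the coding part, with the 60 bases of the circle in capitals.
CG34166, chr2L:14743422-14743615: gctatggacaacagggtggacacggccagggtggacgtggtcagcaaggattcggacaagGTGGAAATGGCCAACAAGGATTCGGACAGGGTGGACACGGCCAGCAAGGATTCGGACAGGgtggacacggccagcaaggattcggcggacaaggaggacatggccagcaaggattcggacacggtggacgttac

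In the next pair of lines, 30 bases before and 30 after the start of the CG34166 circle are set against the same window at its end, and capitals mark the bases that are identical in both.
CG34166 start: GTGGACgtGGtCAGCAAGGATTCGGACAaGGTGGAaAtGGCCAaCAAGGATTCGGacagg
CG34166 end: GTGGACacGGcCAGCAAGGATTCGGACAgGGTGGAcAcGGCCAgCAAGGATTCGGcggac
These windows shared 48 of 60 bases, with a run of 6 identical bases at the junction itself. The Ndae1 exon circRNA shared 13 of 60, the ed circRNA 14 and the 5-exon Ndae1 circRNA 14, beside a median of 16 over all junctions. Only 5 of the 1193 junctions on the reference chromosomes (0.419%) reached 40 of 60. A read over such a junction differs from a read of the linear repeat at few bases, and the part of misplaced reads in the CG34166 circular counts was not tested.

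**Figure D1:**
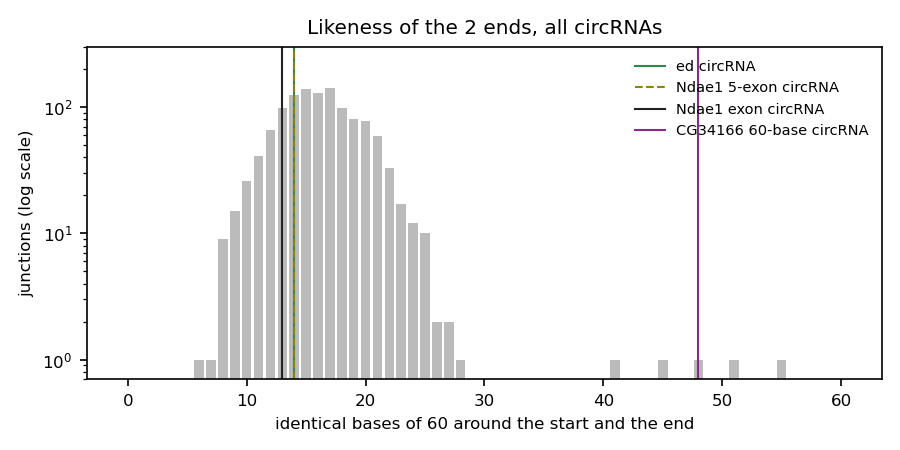
Number of junctions (log scale) by the count of identical bases between 60-base windows centred on the start and on the end of each circRNA, with the members drawn as vertical lines. The CG34166 circRNA lies at 48 identical bases, whereas the ed and Ndae1 circRNAs lie at 13 or 14, within the bulk of all junctions.

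In fat body, the Ndae1 exon circRNA was more abundant relative to linear reads in dilp 2-3,5 than in wDah flies at day 10 and less abundant at days 30 and 50. At day 10 the dilp 2-3,5 libraries had 58, 37 and 36 circular reads with 86, 103 and 82 linear reads. The wDah libraries had 10, 30 and 17 circular reads with 159, 101 and 122 linear reads. The circular share of all reads at these positions was 32.4% ± 7.12 in dilp 2-3,5 and 13.7% ± 8.58 in wDah (SD, n = 3 each), and every mutant library lay above every wDah library.

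At day 30 the same circle had 10, 5 and 5 circular reads in dilp 2-3,5, with 31, 33 and 50 linear reads. The wDah libraries had 16, 11 and 27 circular reads, with 69, 41 and 61 linear reads. The shares, 15.6% ± 7.92 in dilp 2-3,5 and 23.6% ± 6.28 in wDah, overlapped. At day 50 the dilp 2-3,5 libraries had 4, 5 and 7 circular reads, with 35, 52 and 74 linear reads, and the wDah libraries had 10, 6 and 19, with 42, 51 and 58 linear reads. The shares were then 9.22% ± 0.897 in dilp 2-3,5 and 18.1% ± 7.14 in wDah, and every mutant library lay below every wDah library. The reads of 3 libraries together gave a ratio of circular to linear reads that was 3.24-fold that of wDah at day 10 (95% interval 2.36 to 4.50), 0.556-fold at day 30 (0.315 to 0.943) and 0.429-fold at day 50 (0.222 to 0.795). These intervals, and those given further on for the CG34166 ratio, cover counting error of the circular reads only. The linear reads were taken as fixed, so the intervals are too narrow for the ratio.

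The circular reads of the mutant carried most of this change with age. From day 10 to day 50 they fell to 16 in 3 dilp 2-3,5 libraries, from 131, and in wDah to 35, from 57. Linear read counts fell in both genotypes, in mutants to 161 from 271 and in wDah to 151 from 382. These counts were not scaled for library depth, and the day 10 samples were a separate preparation. The transcript level of Ndae1, in the FPKM unit explained below, rose instead. It went from 44.4 to 75.9 in dilp 2-3,5 and from 56.4 to 76.8 in wDah, so the counts do not show a decline of host RNA. The circular part of whole libraries moved as well, since fat body libraries held 2.53% to 4.29% circular reads over all circRNAs in dilp 2-3,5 at day 10, against 1.54% to 2.33% in wDah.

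The ed circRNA was rare in fat body, with 15 circular reads in 18 libraries, and its few reads changed sides between the genotypes. At day 10 there were 3, 2 and 4 circular reads in the dilp 2-3,5 libraries, with 11, 24 and 18 linear reads, against none in the wDah libraries, with 16, 15 and 17 linear reads. At day 30 dilp 2-3,5 had 1, 1 and 0 circular reads with 5, 1 and 9 linear reads, and wDah had none with 6, 5 and 4. At day 50 dilp 2-3,5 had none, with 8, 10 and 15 linear reads, against 1, 1 and 2 in wDah, with 6, 8 and 5 linear reads.

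With a floor of 3 circular reads for the group at 0, the ratio of circular to linear ed reads was 2.72-fold that of wDah at day 10. At day 50 it was 2.32-fold lower in dilp 2-3,5 than in wDah. These values are not lower bounds, because the reads of the other group were taken as exact. The exact intervals of the share overlapped at both ages. At day 10 they were 6.86% to 25.8% in dilp 2-3,5 and 0 to 7.40% in wDah, with 0 of 48 reads. At day 50 they were 0 to 10.6% in dilp 2-3,5, with 0 of 33 reads, and 4.95% to 38.8% in wDah. No age reached 10 circular reads over its 6 libraries, the minimum for a fit, so no fitted difference is given for ed in fat body.

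The CG34166 circRNA had only a small share of the reads at its positions, and that share was higher in dilp 2-3,5 at day 10 and lower at day 50. At day 10 the dilp 2-3,5 libraries had 9, 10 and 10 circular reads with 7885, 7845 and 7881 linear reads, a share of 0.123% ± 0.00751. The wDah libraries had 1, 3 and 0 circular reads with 3814, 5020 and 4678 linear reads, a share of 0.0287% ± 0.0299. The genotypes did not overlap in share.

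At day 30 the dilp 2-3,5 libraries had 10, 12 and 12 circular reads, with 3998, 2929 and 2986 linear reads. The wDah libraries had 18, 8 and 22, with 4309, 2799 and 5540 linear reads. The genotypes overlapped in circular reads, linear reads and share. At day 50 there were 5, 10 and 12 circular reads in dilp 2-3,5, with 3738, 6283 and 5045 linear reads, against 14, 17 and 23 in wDah, with 3207, 3237 and 4614 linear reads. The share was 0.177% ± 0.0541 in dilp 2-3,5 and 0.484% ± 0.045 in wDah at that age, with every mutant library below every wDah library. Over summed reads, the circular to linear ratio was 4.15-fold that of wDah at day 10 (1.46 to 16.2), 0.904-fold at day 30 (0.565 to 1.43) and 0.367-fold at day 50 (0.222 to 0.593). The wDah share itself was lowest at day 10, in the samples generated independently.

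**Figure D2:**
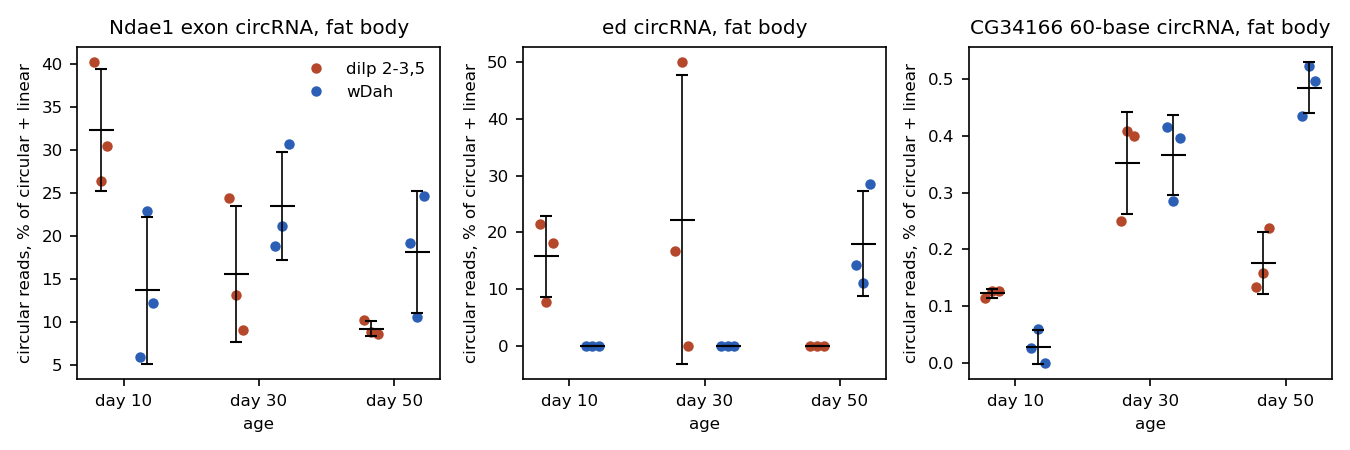
Circular reads as a percentage of circular and linear reads in each fat body library (points) for the Ndae1 exon, ed and CG34166 circRNAs at days 10, 30 and 50, dilp 2-3,5 left of wDah, with the mean and SD of 3 libraries. The mutant points lie above the wDah points at day 10 and below them at day 50 in each panel.

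A shift of circRNAs in general accompanied the day 10 values. Circular and linear reads of a library were fitted together in edgeR, and the 6 fat body libraries of day 10 held 354 circRNAs that reached 10 reads of each kind. Their median log2 difference between dilp 2-3,5 and wDah was 0.81, and 85.3% of them lay above 0. The Ndae1 exon circRNA had a log2 difference of 1.69 at day 10, the 88.1st percentile of these circRNAs, and the CG34166 circRNA had 1.95, the 94.1st percentile. Relative to the median they stood at 0.88 and 1.14. Every mutant library lay above every wDah library in circular share for 25.4% of these 354 circRNAs. At day 50 every mutant library lay below for 7.6% of the 263 circRNAs that reached the same minimum. These shares are a background to the members, which had been chosen on this contrast.

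At days 30 and 50 the median over circRNAs was 0.14 and -0.09. The Ndae1 exon circRNA had log2 differences of -0.81 and -1.17, the 11.7th and 10.6th percentile, and the CG34166 circRNA of -0.11 and -1.44, the 33.7th and 7.22nd percentile. The Ndae1 value at day 10 was the most dependent on the measure, as it was 0.44 when circular reads alone were scaled by TMM. Leaving out 1 library moved the CG34166 value at day 10 between 1.38 and 3.07, the highest without wDah replicate 2, the library with 3 of the 4 wDah circular reads. The Ndae1 value at day 10 ranged from 1.19 without wDah replicate 1 to 2.30 without wDah replicate 2.

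The linear counts behind the CG34166 share were close to the top of the table in the mutants at day 10. No linear count in the table exceeded 8044, 316 of 85968 counts lay at 7500 or more, and all 3 dilp 2-3,5 libraries of day 10 were among these. Over the same groups the FPKM of CG34166, summed over 4 transcripts, was 8045 in dilp 2-3,5 and 2103 in wDah, a 3.83-fold difference, whereas the linear reads differed by 1.75-fold. The linear reads per FPKM were 2.94 in dilp 2-3,5 and 6.43 in wDah at day 10 in fat body, against 6.12 and 5.19 in thorax of the same age. At day 30 the linear reads per FPKM were 1.40 in dilp 2-3,5 and 2.55 in wDah fat body, and 1.37 and 2.79 in gut. The linear counts of these groups lay far from the top of the table. The genotypes differed little in fat body at day 50 (2.46 and 2.35) and in gut at days 10 (4.72 and 4.93) and 50 (2.24 and 2.30). In thorax the dilp 2-3,5 value was the higher one at days 30 (2.54 and 1.91) and 50 (3.14 and 2.495), and in brain it was slightly higher at each age. The linear reads were not scaled for library depth. The part of a ceiling in the linear counts was not tested. FPKM here is 1 value per group with limits given by the authors' pipeline, so that no replicate error can be attached to its differences.

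**Figure D3:**
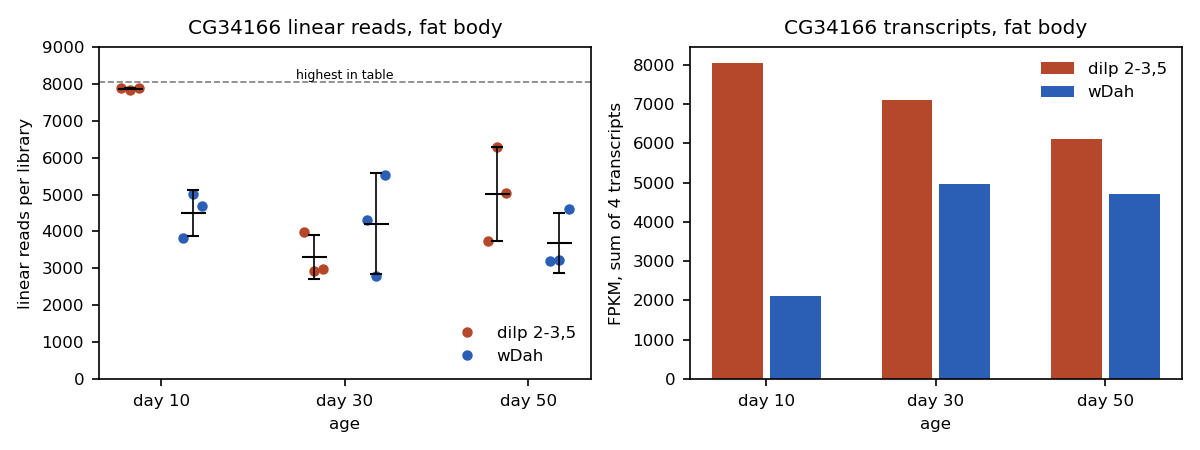
Left, linear reads of CG34166 in each fat body library (points, with mean and SD of 3 libraries) and the highest linear count of the table, 8044 (dashed). Right, FPKM summed over the 4 CG34166 transcripts per group. In dilp 2-3,5 at day 10 all 3 libraries sit just under the dashed line, while FPKM is 8045 in dilp 2-3,5 and 2103 in wDah.

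Host gene levels are given in FPKM, a unit scaled by transcript length that can be compared between genes. Ndae1, summed over 10 transcripts, had 44.4 FPKM in dilp 2-3,5 and 56.4 in wDah fat body at day 10, 80.7 and 80.3 at day 30, and 75.9 and 76.8 at day 50. At day 10 the most abundant Ndae1 transcript, FBtr0331661, had 17.2 FPKM in dilp 2-3,5 (95% limits 4.96 to 29.4) and 21.8 in wDah (9.21 to 34.4), limits that overlapped widely. The largest gap between the genotypes at that age was in FBtr0299537, with 7.37 FPKM in dilp 2-3,5 (0 to 16.4) and 16.6 in wDah (3.46 to 29.8), where the limits overlapped too.

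FPKM of ed, summed over 3 transcripts, was 8.89 in dilp 2-3,5 and 8.49 in wDah at day 10, 9.90 and 8.50 at day 30, and 11.2 and 7.26 at day 50. At day 50 the gene was 1.54-fold that of wDah, whereas circular reads were found only in wDah. CG34166 was the only member past 2-fold in fat body, at day 10, with 7092 and 4958 FPKM at day 30 and 6114 and 4699 FPKM at day 50 in dilp 2-3,5 and wDah. Over all genes with a value, 4.02%, 5.56% and 5.29% were past 2-fold higher in the mutant fat body on days 10, 30 and 50.

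CG34166 was higher in mutant gut as well, with 176 FPKM in dilp 2-3,5 and 45.6 in wDah at day 10, 67.7 and 22.3 at day 30, and 109 and 37.4 at day 50. On days 10, 30 and 50, 3.43%, 8.37% and 8.78% of all genes were past 2-fold higher in mutant gut. In brain, CG34166 had 256 FPKM in dilp 2-3,5 and 289 in wDah at day 10, and in thorax 927 and 606.

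Tissue identity and admixture were read from marker genes. Of 8 fat body markers, Rfabg, the apolipophorin precursor secreted by fat body, had 1366 FPKM in dilp 2-3,5 and 1287 in wDah fat body at day 10, against 27.4 and 19.4 in gut. Among the others Fbp1 was past 2-fold higher, with 2.54 and 0.193 FPKM, takeout (to) was past 2-fold lower, with 0.455 and 5.62, and the yolk protein gene Yp1 had 8091 in dilp 2-3,5 and was listed at 0 in wDah. The status that the authors' pipeline gave to each value was read only for the member genes. Whether the 0 for Yp1 is a measured value or a failed estimate was therefore not checked, and no absence is read from it. The 5 neuron markers summed to 31.04 FPKM in dilp 2-3,5 and 15.5 in wDah fat body at day 10, of which Syt1, a synaptic vesicle protein, made up 29.3 and 13.2, while elav, a neuronal RNA-binding protein, had 1.23 and 1.32, against 27.6 and 22.9 in brain. They summed to 6.05 and 5.80 at day 30 and to 4.79 and 7.82 at day 50. A list of 7 gut and tubule markers summed to 127 FPKM in dilp 2-3,5 and 2121 in wDah fat body at day 10, 147 and 483 at day 30, and 120 and 653 at day 50, and none was at 0 in either genotype at day 10. A list of 9 ovary and eggshell markers summed to 211 and 2110 at day 10, 127 and 507 at day 30, and 571 and 262 at day 50. The 4 hemocyte markers summed to 88.2 FPKM in dilp 2-3,5 and 42.2 in wDah at day 10, 54.0 and 40.8 at day 30, and 43.9 and 43.2 at day 50. The part of gut, ovary, blood cell and neuronal RNA in the fat body differences was not tested.

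Across tissues, the circRNAs of the 3 genes were not found in the same places. The Ndae1 exon circRNA had 313 of its 539 circular reads in fat body, while thorax held 125, brain 77 and gut 24, each over 18 libraries. Per 100000 counted reads, its median was 7.75 in fat body (3.08 to 29.8), 1.95 in thorax (0 to 8.86), 1.93 in brain (0 to 5.47) and 1.02 in gut (0 to 5.15), and the ranges of all neighbours in this order overlapped. Its circular share averaged 18.8% ± 9.60 in fat body, 16.4% ± 11.2 in thorax, 10.8% ± 7.70 in brain and 3.23% ± 4.97 in gut (SD, n = 18 each). The gut thus had a low share although its linear reads, a median of 33.3 per 100000, were close to the 35.8 of fat body.

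The 5-exon Ndae1 circRNA was nearly absent outside the brain, which held 112 of its 116 circular reads, with 4 in thorax. In fat body there were 0 circular reads beside 1246 linear reads over 18 libraries, and in gut 0 beside 823. In the largest fat body group, wDah at day 10, the exact interval for 0 of 341 reads allows a share of up to 1.08%. Its share in brain averaged 12.3% ± 7.03 (SD, n = 18), close to the 10.8% of the exon circle there.

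The ed circRNA was a brain circle above all, with 285 of 348 circular reads there, while thorax held 40, fat body 15 and gut 8. Its share averaged 40.3% ± 13.6 in brain, 14.9% ± 11.4 in thorax, and 9.33% ± 13.7 for fat body, with 7.13% ± 12.2 in gut (SD, n = 18 each), and thorax, fat body and gut overlapped in range. In contrast, 196 of the 225 circular reads of CG34166 were in fat body, and in the other tissues no library had more than 3, as in thorax at day 30 with 0, 0 and 0 in dilp 2-3,5 against 1, 1 and 3 in wDah. Its share was small everywhere, 0.255% ± 0.169 in fat body, 0.32% ± 1.36 in gut, 0.223% ± 0.407 in brain and 0.156% ± 0.228 in thorax, with overlapping ranges, and the gut value rests on 3 reads in 1 library.

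**Figure D4:**
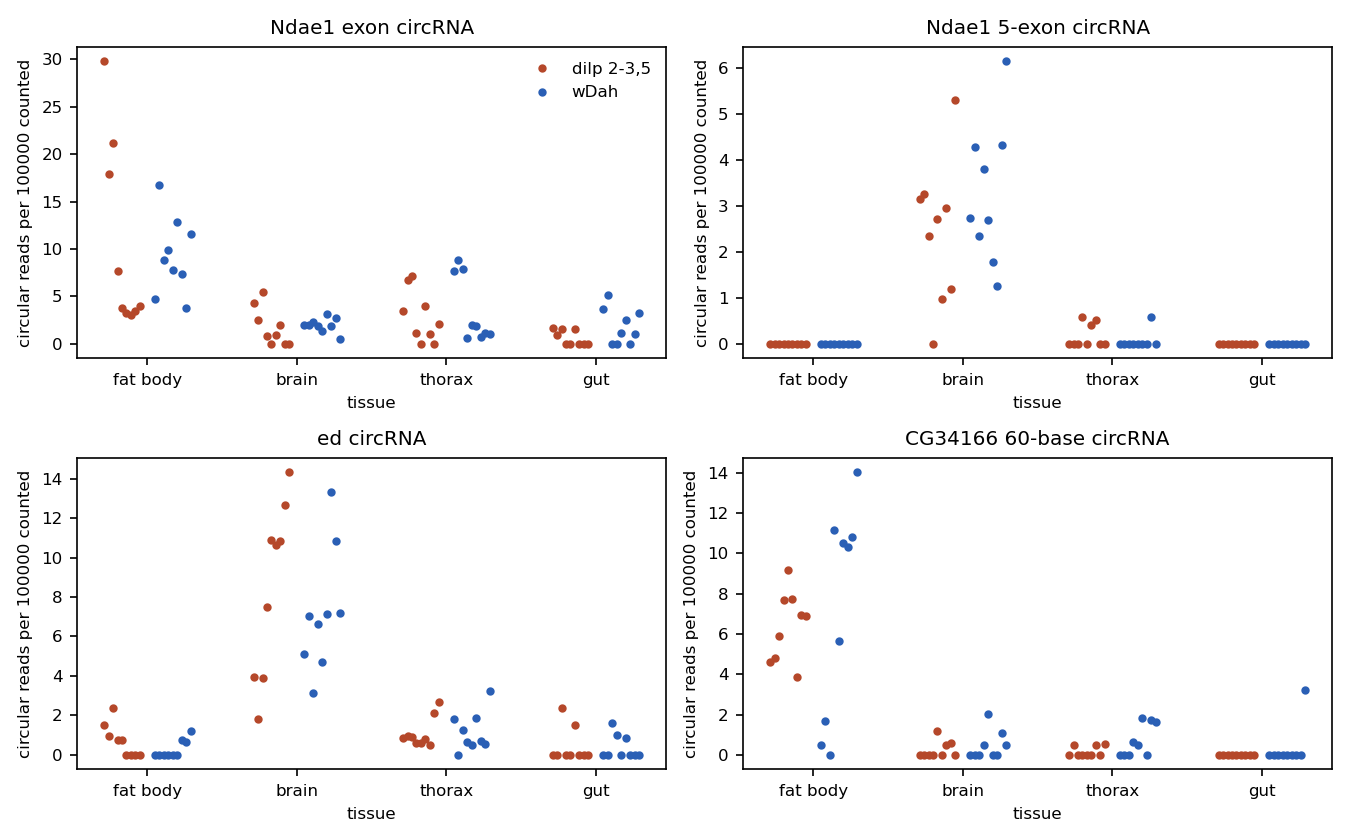
Circular reads per 100000 counted reads in each of the 72 total RNA libraries (points, ordered by day 10, 30 and 50 within a genotype) for the 4 circRNAs, dilp 2-3,5 left of wDah in each tissue. The Ndae1 exon and CG34166 circRNAs are highest in fat body, with medians of 7.75 and 6.92, and the ed and 5-exon Ndae1 circRNAs are highest in brain, with medians of 7.16 and 2.74.

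In brain, the Ndae1 exon circRNA had a positive difference at day 10 and negative ones later, none of which passed the test. At day 10 the dilp 2-3,5 brains had 11, 7 and 14 circular reads with 52, 77 and 41 linear reads, against 5, 5 and 6 in wDah with 67, 69 and 66. The shares of the genotypes met at 8.33%, and the log2 difference was 1.27 ± 0.65 (SE; edgeR quasi-likelihood test, unadjusted p = 0.0622, adjusted p = 0.999). At day 30 dilp 2-3,5 had 1, 0 and 2 circular reads with 12, 28 and 15 linear reads, and wDah had 4, 2 and 7 with 20, 18 and 22, a log2 difference of -1.84 ± 0.90 (edgeR, unadjusted p = 0.0482, adjusted p = 0.604). At day 50 dilp 2-3,5 had 4, 0 and 0 circular reads with 19, 18 and 20 linear reads, against 3, 5 and 1 in wDah with 19, 25 and 24 (log2 difference -0.84 ± 0.86, edgeR adjusted p = 0.786). Where a fit without 1 library was possible, the day 30 value ranged from -2.82 without dilp 2-3,5 replicate 3 to -0.90 without dilp 2-3,5 replicate 2, and the day 50 value from -1.28 without wDah replicate 3 to -0.26 without dilp 2-3,5 replicate 3, with -0.33 without dilp 2-3,5 replicate 2.

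The change of the genotype difference between day 10 and day 50 in brain was -2.13 ± 1.19 on the log2 scale for the Ndae1 exon circRNA (edgeR, unadjusted p = 0.0831, adjusted p = 1). Between days 30 and 50 it was 0.96, the opposite sign. The fit rests on dilp 2-3,5 replicate 1 at day 50, the only mutant brain library of that age with circular reads, and without it no value is given.

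In thorax, the Ndae1 exon circRNA at day 10 had 8, 14 and 16 circular reads with 34, 40 and 40 linear reads in dilp 2-3,5, against 17, 20 and 19 with 39, 35 and 43 in wDah. Every mutant library thus lay below every wDah library in circular share, opposite to fat body at that age. In thorax at day 10 this held for 9.51% of the 536 circRNAs with at least 10 reads of each kind. The log2 difference was -0.52 ± 0.35 and did not pass the test (edgeR, unadjusted p = 0.153, adjusted p = 0.730). At days 30 and 50 the differences were 0.38 ± 0.84 and -0.10 ± 1.02, with 0 to 10 circular reads per library, and in gut at day 10 the difference was -0.38 ± 0.84, with 0 to 6.

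The ed circRNA, which the brain expressed at 5 to 28 circular reads per library, showed no difference between genotypes there that passed the test. The log2 differences were -0.30 ± 0.66 at day 10, 0.46 ± 0.50 at day 30 and 0.33 ± 0.37 at day 50 (edgeR adjusted p = 0.999, 0.932 and 0.797). At day 10 dilp 2-3,5 brains had 10, 5 and 10 circular reads with 25, 37 and 22 linear reads, against 13, 18 and 8 with 26, 34 and 45 in wDah. At day 50 they had 22, 21 and 27 with 25, 25 and 21, against 21, 20 and 14 with 19, 25 and 26, and the groups overlapped at every age. In thorax its differences were -0.75 ± 0.86 at day 10 and -0.17 ± 0.83 at day 50.

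The 5-exon Ndae1 circRNA had 8, 9 and 6 circular reads in dilp 2-3,5 brains at day 10, against 7, 11 and 6 in wDah, then 0, 7 and 2 against 8, 4 and 4 at day 30, and 6, 2 and 10 against 2, 8 and 12 at day 50. The groups overlapped at every age. Its log2 differences were 0.05 ± 0.63, -0.79 ± 0.71 and -0.20 ± 0.52 (edgeR adjusted p = 0.999, 0.909 and 0.913).

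Over brain, thorax and gut, 15 tests of a member circRNA were possible, and 0 were called by edgeR at an adjusted p under 0.05, with 1 at an unadjusted p under 0.05, and 0 by DESeq2, also with 0 unadjusted. Of all tests in these 9 fits, 0.749% were called, and 7.55% had an unadjusted p under 0.05. For the change of the genotype difference from day 10 to day 50, 0 of 8 member tests were called by edgeR and 0 by DESeq2, with 0 at an unadjusted p under 0.05 in either, against 0.0% called over all circRNAs and 4.42% unadjusted. Tests of CG34166 were possible only for the change with age, in brain and thorax, where 2 and 3 of the 6 groups had at most 1 circular read, so that no direction is read from its fitted values.

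**Figure D5:**
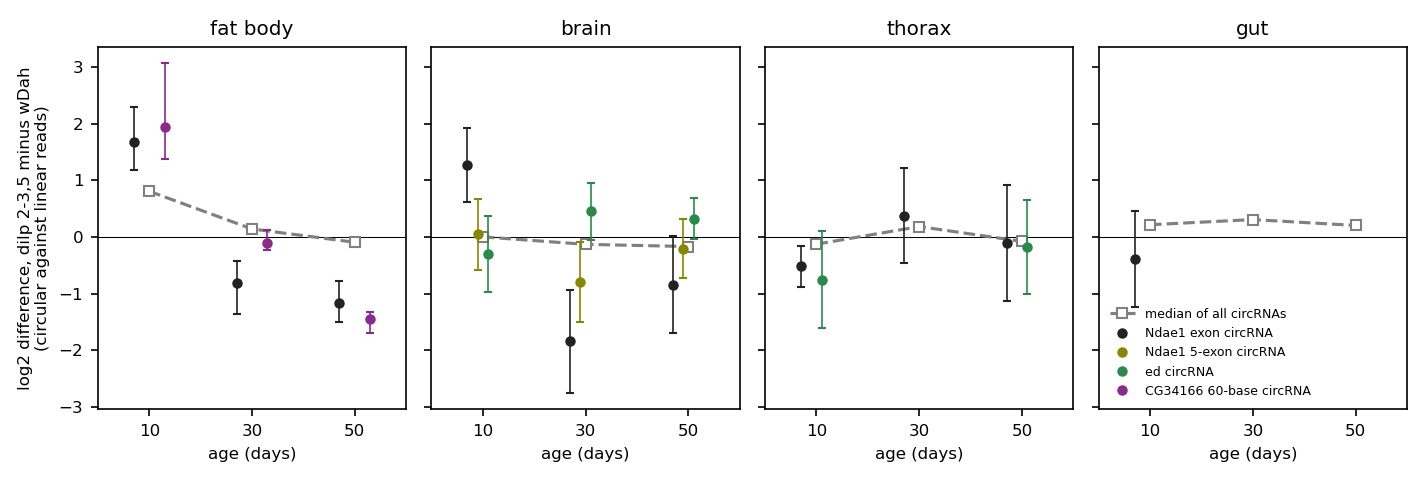
Log2 difference of circular against linear reads, dilp 2-3,5 minus wDah, at each age in 4 tissues for the member circRNAs with enough reads, with the median of all circRNAs tested (squares). Bars are the SE in brain, thorax and gut, and in fat body, where no test was run, the range when 1 library was left out. In fat body the Ndae1 exon and CG34166 circRNAs lie above the median of 0.81 at day 10 and below the median of -0.09 at day 50.

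In polysome-enriched RNA of day 10 fat bodies, the genotypes could be compared in libraries that the choice of members did not use. The Ndae1 exon circRNA had 20, 13 and 12 circular reads with 165, 117 and 99 linear reads in dilp 2-3,5, against 9, 21 and 14 with 83, 94 and 135 in wDah. The shares were 10.5% ± 0.468 in dilp 2-3,5 and 12.5% ± 5.01 in wDah (SD, n = 3 each), which overlapped, and the log2 difference of -0.24 ± 0.64 did not pass the test (edgeR adjusted p = 0.974).

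The CG34166 circRNA had 2, 5 and 7 circular reads with 7934, 7929 and 7926 linear reads in dilp 2-3,5 polysomes, against 4, 3 and 3 with 6431, 5430 and 7819 in wDah. The log2 difference was 0.16 ± 0.99 (edgeR adjusted p = 0.974), and the mutant linear counts again lay at the top of their table, whose highest count was 7934. A longer CG34166 circle of 123 bases, chr2L:14743482-14743604, which shares its start with the short one, was counted in the polysome experiment only. It had 5, 8 and 10 circular reads in dilp 2-3,5 polysomes and 4, 1 and 11 in wDah polysomes, with a log2 difference of 0.16 ± 0.89 (edgeR adjusted p = 0.974). The same experiment also counted it in the day 10 total RNA libraries of fat body, on which the members were chosen. There it had 9, 13 and 16 circular reads with 5295, 4969 and 4925 linear reads in dilp 2-3,5. The wDah libraries had 3, 4 and 0 circular reads with 2953, 3846 and 3628 linear reads. This is the same side as the short circle, but in the same libraries, so it is only a description.

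Of the 3 polysome tests of member circRNAs, 0 were called by edgeR, with 0 at an unadjusted p under 0.05, and 0 by DESeq2, against 0.0% called and 2.79% unadjusted over the 179 circRNAs tested. With the replicate number as a block, the Ndae1 exon circRNA had a log2 difference of -0.26 in polysomes (edgeR adjusted p = 0.911), and no call changed.

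Genes that share a pathway with Ndae1 and ed were read in FPKM as well. Of 21 genes for bicarbonate, chloride and proton transport, 0 were past 2-fold higher in the mutant at any age, and 1 was lower at day 10, 0 at day 30 and 1 at day 50. On days 10, 30 and 50, 6.6%, 7.33% and 9.08% of all genes were past 2-fold lower. The one at day 10 was CAH2, a carbonic anhydrase, with 8.13 FPKM in dilp 2-3,5 and 23.3 in wDah fat body. CAH2 was past 2-fold lower in mutant brain as well, with 3.60 and 7.55 FPKM at day 30 and 5.25 and 11.7 at day 50. The day 30 value was no longer past 2-fold with a pseudocount of 1 FPKM. Of all genes in brain, 4.74% at day 30 and 6.11% at day 50 were past 2-fold lower. The one at day 50 in fat body was CG31547, listed in the gene annotation as NKCC, with 1.17 and 3.22 FPKM. It too was no longer past 2-fold with a pseudocount of 1 FPKM. Subunits of the proton pump varied less, for example Vha55 with 68.5 and 86.8 FPKM and Vha100-1 with 83.6 and 73.7 at day 10.

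Of 20 genes around Echinoid in cell adhesion, EGF receptor and Hippo signaling, 0 passed 2-fold in either direction in fat body at any age. Egfr, the receptor, had 60.2 FPKM in dilp 2-3,5 and 66.6 in wDah at day 10, and yki, the Hippo effector, 8.61 and 7.94. The Echinoid paralog fred was near 0, with 0.0277 and 0.0224 FPKM. The median log2 difference of this list was -0.05 at day 10, beside -0.02 over all genes.

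circRNAs whose log2 ratio of circular to linear reads moved most like that of a member over the 18 fat body libraries were named by the highest Pearson r, among up to 316 circRNAs that reached 30 reads of each kind. These are descriptions, since libraries share genotype, age and depth. For the Ndae1 exon circRNA they came from ps (r = 0.83), which encodes the splicing factor Pasilla, dsx (0.82), the sex determination factor Doublesex, and Cals (0.79), the membrane protein Calsyntenin, against a median r of 0.30. For the ed circRNA they came from Trc8 (0.75), Pdk1 (0.75), a kinase in insulin signaling, and ckn (0.71), against a median of 0.26.

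For the CG34166 circRNA they included Lsd-2 (0.81), a perilipin that coats lipid droplets, and RpL6 (0.80), a ribosomal protein gene, against a median of 0.06. The RpL6 circle spans 87 bases and like CG34166 has no annotated end, while the Lsd-2 circle spans 1034 bases between annotated exon ends.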

How the data were processed

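Reads had been aligned by the authors (STAR 2.5.2b, BDGP6) and circRNAs called with DCC, keeping those with 5 reads in at least 6 samples. The deposited tables hold unnormalized counts of circular and linear reads per junction and library. The deposited transcript table holds FPKM (HISAT2 2.0.4, StringTie 1.3.0 and Cufflinks, with Cuffdiff 2.2.1 named in the submitters' processing notes) as 1 pooled value per group with 95% limits. The deposited coordinate columns give chromosome position and gene, and were used as given. Tables of the authors' beta-binomial tests (p-values) were not used.

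Both kinds of count were fitted jointly in edgeR 4.0.16 under R 4.3.3, each library giving a pair of columns and having its own term. The circular against linear term and its genotype difference were tested by the quasi-likelihood test, for circRNAs reaching 10 reads of each kind in a fit, and Benjamini-Hochberg adjustment over all circRNAs at 0.05. The same library size was used for both columns, so that a general rise of circRNAs stays in the values. A self-test on simulated counts covered the day 10 genotype fits and the change with age in brain, thorax and gut, and the polysome fit. It did not cover the genotype fits at days 30 and 50 or any fit in fat body. Its simulated counts had a fixed spread, not that of the data, so it does not show which member differences the fits could have found. Intervals of a share are exact (Clopper-Pearson, 95%). Those of a ratio come from the exact interval of the circular reads, with the linear reads taken as fixed. The floor for a group at 0 is 3 reads. Reads are not independent molecules. FPKM differences use log2 of FPKM plus 0.1, without a test. Where a junction was repeated in the table (3 cases), both rows were kept.

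Library totals over the 1194 circRNAs ranged from 503 to 38812 circular and from 60382 to 245298 linear reads. The members and the gene lists were chosen with earlier results of these data known. All circRNAs of the 3 genes are named, plus, for each gene's most abundant fat body circle, the 3 circRNAs of other genes with the most similar ratio, of which 1 is not reported here. Replicate numbers paired the genotypes, by correlations of their deviations all over 0.1, in polysomes and in thorax at day 50, and in 0 of the other 11 comparisons. Alternatives were DESeq2 1.42.0, circular reads alone (TMM or linear totals), other minimums and 1 fit over 18 libraries of a tissue. Further ones were a replicate block, leaving out each library, and a pseudocount of 1 FPKM. Leaving out circRNAs with linear counts over 7000 was done only for the genotype fits in brain, thorax and gut. It was not done in fat body or polysomes, where the CG34166 linear counts lay near the top. Python 3.11.15, numpy 2.4.6, pandas 2.3.3, scipy 1.17.1 and matplotlib 3.10.9 were used.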

Additional observations from a re-analysis of the deposited data

Results flagged for a closer look

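In fat body, 3 member circRNAs had every dilp 2-3,5 library above every wDah library in circular share at day 10 and every one below at day 50, and the difference between the ages was not tested, because the members were chosen on it. Of the 354 circRNAs with at least 10 reads of each kind at day 10, 25.4% lay above in this way. At day 50, 7.6% of 263 lay below. The ed circRNA did not reach this minimum at either age, so these shares are no background for it. The summed circular reads of 3 libraries were 131 in dilp 2-3,5 and 57 in wDah at day 10 and 16 and 35 at day 50 for the Ndae1 exon circRNA. They were 9 and 0 at day 10 and 0 and 4 at day 50 for the ed circRNA, and 29 and 4 at day 10 and 27 and 54 at day 50 for the CG34166 circRNA. At day 10 the Ndae1 exon circRNA also lay on opposite sides in 2 tissues, since all mutant thorax libraries were below all wDah ones in share, with 38 circular reads in dilp 2-3,5 and 56 in wDah. The same held for 9.51% of 536 circRNAs in thorax at day 10, and the fitted thorax difference did not pass the test. That difference between tissues was not tested either. With 3 samples a group, outlying single libraries were not looked for.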

How the results depend on the processing

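In fat body, scaling circular reads alone by TMM gave log2 differences of 0.44 for the Ndae1 exon circRNA at day 10 and -0.96 for CG34166 at day 50, and scaling by linear totals gave -0.97 for CG34166 at day 50, while no other of these fat body values moved beyond the spread of the replicates except when 1 library was left out. Without 1 library the ranges were 1.38 to 3.07, -0.23 to 0.12 and -1.70 to -1.32 for CG34166, and 1.19 to 2.30, -1.36 to -0.42 and -1.50 to -0.78 for the Ndae1 exon circRNA at days 10, 30 and 50. Outside fat body the count of called members stayed at 0 under every alternative. Uncalled differences changed sign with circular reads alone scaled by TMM (-0.27 for the Ndae1 exon circRNA in thorax at day 30, -0.22 for the 5-exon Ndae1 circRNA in brain at day 10) or by linear totals (0.099 for the Ndae1 exon circRNA and 0.18 for ed in thorax at day 50, -0.071 for the 5-exon Ndae1 circRNA in brain at day 10). The change with age between days 30 and 50 had the other sign than between days 10 and 50 for the Ndae1 exon circRNA (0.96 in brain, -0.57 in thorax), the 5-exon Ndae1 circRNA (0.63 in brain) and ed (-0.15 in brain). For each of these the cause was not tested. For CG34166 the fit gave 0.50 in brain and 2.99 in thorax between days 30 and 50, and from -0.88 to 0.43 in brain between days 10 and 50 without 1 library, but its day 10 groups held 0 reads in brain and 1 in thorax, so the sign of these values is not a measurement.

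Leaving out 1 library turned the sign of further uncalled values. In polysomes the ranges were -0.36 to 1.04 for the longer and -0.23 to 0.54 for the short CG34166 circle, and -0.47 to 0.16 for the Ndae1 exon circRNA. Changes with age ranged from -0.75 to 0.23 for the 5-exon Ndae1 circRNA in brain, and from -0.42 to 0.93 for the Ndae1 exon circRNA and -0.18 to 1.81 for ed in thorax. Genotype differences ranged in thorax from -1.12 to 0.91 at day 30 and -0.14 to 0.40 at day 50 for the Ndae1 exon circRNA and -0.64 to 1.06 for ed at day 50, and in brain from -0.19 to 0.33 at day 10 and -0.73 to 0.27 at day 50 for the 5-exon Ndae1 circRNA and -0.77 to 0.20 for ed at day 10. The replicate block changed no call, and in polysomes it gave log2 differences of -0.26, 0.18 and 0.11 for the Ndae1 exon, short and longer CG34166 circRNAs. With a pseudocount of 1 FPKM, 0 transport genes were past 2-fold in fat body at day 50. Few circular reads limit these values, since no library had more than 58 for a member.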
